A study of Mus musculus with 5 samples.

Results

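Foxn4, Isl1 and Pax6 are transcription factors that direct the fate of retinal cells, and 9 spots of the arrays carried one of these names as their only gene symbol. Foxn4 had 1 spot, Isl1 had 4 and Pax6 had 4, out of 7722 spots with a single gene symbol for 5708 genes. The study set retina of mice without functional Rb, labelled mutant mice (Rb-), against retina of wild-type mice on 5 dual-colour arrays. Each array held mutant total RNA in channel 2 and wild-type total RNA in channel 1, and the 5 arrays form 1 group, numbered 1 to 5 in order of deposition. The series title speaks of retinal explants, which are pieces of retina kept in culture. The sources used here name no allele, driver of a deletion, age, time in culture or number of animals.

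The spots were chosen by gene symbol, and the 3 genes were picked with earlier results of the same ratios in view. Their ratios are therefore given as a description, with no test result of their own. The values are log2 ratios of the 2 channels as deposited, with each array centred on the median of its spots. The dye of each RNA and the order of the deposited ratio are not stated, so a positive or negative sign is not assigned to either genotype. Nothing in the labels ties the arrays to separate mice or explants, so the spread between them may be technical. In whole retina, fewer cells of a type and less RNA per cell cannot be told apart. A ratio carries no level, so the labelled tissue could not be checked against the level of its markers.

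The retina makes its neurons and glia from one pool of progenitors, and combinations of transcription factors set which type a cell becomes. Foxn4, a forkhead factor of a subset of dividing progenitors, is needed for horizontal cells and for most amacrine cells. Isl1, a LIM homeodomain factor, acts in ganglion cells, cholinergic amacrine cells and ON bipolar cells as they leave the cell cycle and mature. Pax6, which binds DNA through a paired domain and a homeodomain, keeps progenitors multipotent and stays on in amacrine, ganglion and horizontal cells. Rb, the retinoblastoma protein, restrains the E2F factors that switch on genes of S phase.

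Because Rb acts through E2F at promoters, a window around 1 RefSeq start of each gene is shown, from 250 bases before to 50 after the start, on the strand of the gene, 5′ to 3′, in assembly GRCm38.p6. Capitals mark the CCAAT box and the cAMP response half-site TGACG, searched on both strands. A half-site on each strand, overlapping, makes the full element TGACGTCA.
Foxn4, chr5:114273712-114274011, minus strand: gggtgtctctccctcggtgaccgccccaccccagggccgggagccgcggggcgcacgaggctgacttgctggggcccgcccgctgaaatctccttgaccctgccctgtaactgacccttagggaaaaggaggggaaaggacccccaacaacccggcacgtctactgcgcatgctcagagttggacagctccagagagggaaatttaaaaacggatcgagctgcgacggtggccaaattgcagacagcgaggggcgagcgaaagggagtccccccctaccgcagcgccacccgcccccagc
Isl1, chr13:116309639-116309938, minus strand: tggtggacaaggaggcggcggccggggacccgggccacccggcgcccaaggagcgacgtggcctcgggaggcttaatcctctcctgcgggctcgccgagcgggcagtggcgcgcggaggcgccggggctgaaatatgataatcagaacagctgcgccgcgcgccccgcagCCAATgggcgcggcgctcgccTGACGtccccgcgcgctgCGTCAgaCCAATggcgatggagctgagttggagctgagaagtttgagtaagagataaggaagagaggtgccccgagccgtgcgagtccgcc
Pax6, upstream start, chr2:105668646-105668945, plus strand: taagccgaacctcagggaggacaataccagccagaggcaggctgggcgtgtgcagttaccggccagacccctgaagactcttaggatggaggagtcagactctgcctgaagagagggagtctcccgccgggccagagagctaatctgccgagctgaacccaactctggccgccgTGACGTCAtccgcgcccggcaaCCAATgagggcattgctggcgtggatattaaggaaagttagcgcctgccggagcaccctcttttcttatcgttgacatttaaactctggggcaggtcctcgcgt

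The E2F site, written as TTTCCCGC, TTTGGCGC, TTTCGCGC or TTTGCCGC on either strand, was not found in these windows or in a further Pax6 window at chr2:105682213-105682512. It stood in 2.26% of all 32851 promoter windows of the table. The Isl1 window held 2 CCAAT boxes and 2 half-sites. The upstream Pax6 window held 1 CCAAT box, and its 2 overlapping half-sites formed the full element. The Foxn4 window held neither motif, and the further Pax6 window held 2 half-sites and no CCAAT box. CCAAT stood in 37.4% of all windows, TGACG in 20.8% and TGACGTCA in 1.79%. The Isl1 window was rich in CG dinucleotides, with 37 in 300 bases, against 22 for Foxn4, 18 and 16 for Pax6 and a median of 7 over all windows. The RefSeq gene of Foxn4 reaches further upstream than the start shown, and no other window of it was searched. These matches describe letters in a window and not binding.

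Of the 9 spots, 6 were measured on all 5 arrays, 2 on 4 arrays and 1 on a single array. The 6 empty cells among 45 were empty as deposited, and none held the filler value. Of the 39 measured ratios, 30 were negative. By the centring, about as many of all spots lie below 0 as above it on each array. The median of all gene values was -0.39, 0.007, -0.43, 0.13 and -0.27 on arrays 1 to 5, so named genes lean negative on arrays 1, 3 and 5. Foxn4 stood apart from the other genes in sign on arrays 1, 3 and 4, where its ratio was positive and most ratios of Isl1 and Pax6 were negative. Of the 6 spots on all arrays, 3 were negative on every array, where 11.2% of all such spots were, and 0 were positive on every array, where 4.01% were.

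**Figure D1:**
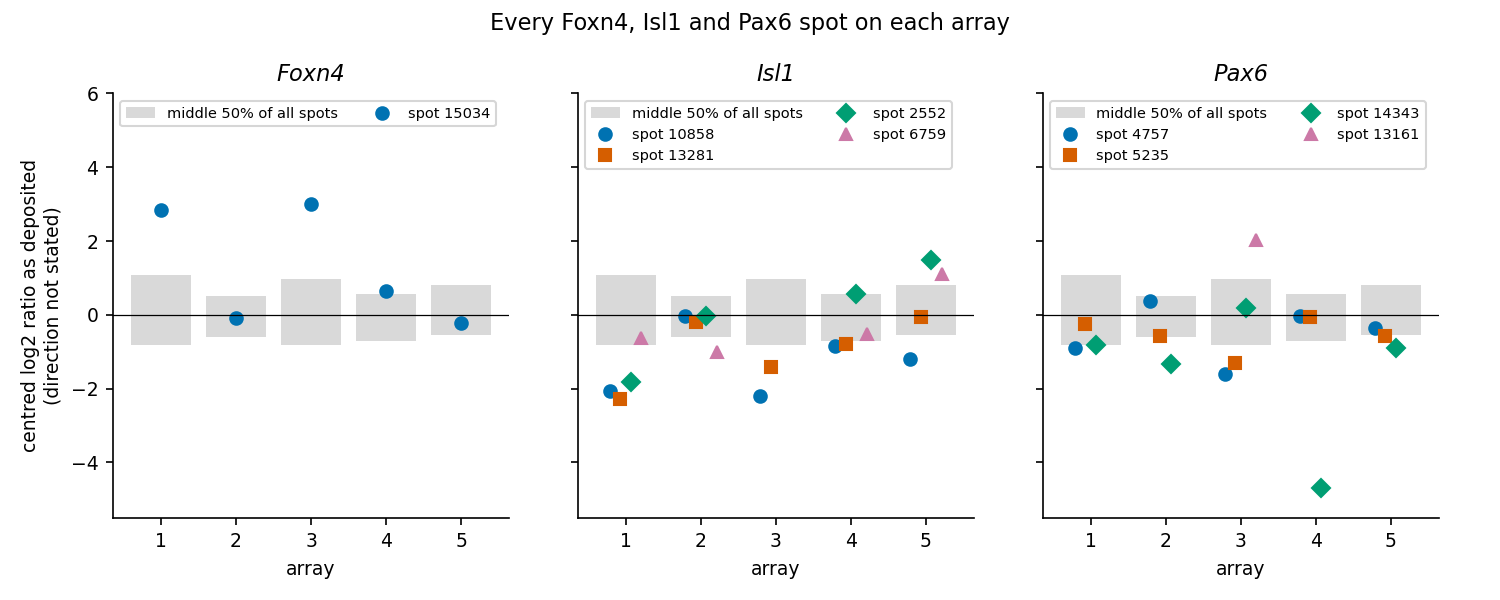
Centred log2 ratio (y axis) of each spot of Foxn4, Isl1 and Pax6 on arrays 1 to 5 (x axis), a marker per spot, over grey bars for the middle 50% of all spots on that array. Foxn4 lies above the grey bar on arrays 1, 3 and 4, at 2.84, 2.99 and 0.64, and 2 of the Isl1 spots lie below 0 on all 5 arrays.

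Foxn4, the factor for horizontal and amacrine cells, was represented by spot 15034. Its centred log2 ratio was 2.84, -0.092, 2.99, 0.64 and -0.23 on arrays 1 to 5. Arrays 1 and 3 were high, array 4 was intermediate, and arrays 2 and 5 lay just below 0. The mean was 1.23 ± 1.58 (SD, n = 5), so the spread between arrays was larger than the mean. A ratio above 1 was reached on array 1, where 26.0% of all spots did so, and on array 3, where 24.4% did. Among all spots Foxn4 ranked at percentiles 93.5, 44.3, 94.9, 77.9 and 39.6 on arrays 1 to 5. Among the gene values of the 3739 genes measured on all arrays it ranked at percentiles 99.4, 39.2, 99.6, 83.6 and 53.1. Spots measured on all arrays spread less than all spots. Their scaled median absolute deviation was 1.00 against 1.37 on array 1 and 1.00 against 1.31 on array 3. Ranks among these genes are therefore not on the scale of ranks among all spots. The median of these genes was itself off 0, at -0.39, 0.007, -0.43, 0.13 and -0.27. Relative to it Foxn4 lay at 3.23, -0.099, 3.42, 0.52 and 0.041.

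The arrays were scanned at 2 focus positions, which the labels list as 10 for arrays 1, 2 and 3 and 0 for arrays 4 and 5. Within the first set the Foxn4 mean was 1.91 ± 1.74 (SD, n = 3), and within the second it was 0.21 ± 0.62 (SD, n = 2). Without array 3 the mean was 0.79, a change of over 1.5 times, and without array 1 it was 0.83. The high mean of Foxn4 therefore rests on arrays 1 and 3, and a single spot gives no second reading of the gene.

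Isl1, the LIM homeodomain factor of ganglion and bipolar cells, was read by 4 spots that disagreed on some arrays. On arrays 1 to 5 the log2 ratio of spot 10858 was -2.05, -0.030, -2.19, -0.84 and -1.19, averaging -1.26 ± 0.89 (SD, n = 5). That of spot 13281 was -2.28, -0.18, -1.43, -0.78 and -0.046, averaging -0.94 ± 0.93 (SD, n = 5). Both were negative on all 5 arrays, lowest on arrays 1 and 3 and close to 0 on array 2. Without array 1 the mean of spot 13281 was -0.61.

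The other Isl1 spots were empty on array 3. Spot 2552 had -1.81, -0.039, 0.58 and 1.48 on arrays 1, 2, 4 and 5, a mean of 0.052 ± 1.39 (SD, n = 4). Spot 6759 had -0.62, -1.01, -0.51 and 1.11 on the same arrays, a mean of -0.26 ± 0.93 (SD, n = 4). Both means hung on single arrays. That of spot 2552 was 0.67 without array 1, -0.12 without array 4, -0.42 without array 5 and 0.082 without array 2, and that of spot 6759 was -0.14 without array 1, -0.0075 without array 2, -0.17 without array 4 and -0.71 without array 5. These spots followed the first pair in sign on arrays 1 and 2 and opposed it on array 5, where both were above 1. All measured Isl1 spots were negative on arrays 1, 2 and 3, with 4, 4 and 2 spots, against 3 of 4 on array 4 and 2 of 4 on array 5. By the centring, about as many of all spots are negative as positive on each array. Below -1 lay 3 of 4 Isl1 spots on array 1 (20.2% of all spots), 1 of 4 on array 2 (18.0%), 2 of 2 on array 3 (20.9%), 0 of 4 on array 4 (19.9%) and 1 of 4 on array 5 (12.3%). Above 1 lay 2 of 4 on array 5, where 22.0% of all spots did.

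The Isl1 gene value, averaged over spots 10858 and 13281, was -2.16, -0.11, -1.81, -0.81 and -0.62 on arrays 1 to 5. It was negative on every array, with a mean of -1.10 ± 0.86 (SD, n = 5). Averaged over every measured spot the mean was -0.77 ± 0.94 (SD, n = 5). Among all genes the value ranked at percentiles 3.80, 37.9, 8.18, 8.18 and 24.7. Arrays of focus position 10 gave -1.36 ± 1.10 (SD, n = 3) and those of position 0 gave -0.71 ± 0.13 (SD, n = 2).

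Pax6, the paired-domain factor of progenitors and inner retinal neurons, was read by 3 spots on all arrays and by a further spot on array 3 alone. On arrays 1 to 5 the log2 ratio of spot 4757 was -0.91, 0.37, -1.61, -0.024 and -0.35, averaging -0.51 ± 0.78 (SD, n = 5). That of spot 5235 was -0.24, -0.56, -1.32, -0.064 and -0.57, averaging -0.55 ± 0.48 (SD, n = 5). Both were lowest on array 3 and near 0 on array 4. Without array 3 their means were -0.23 and -0.36.

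On the same arrays spot 14343 went another way, with -0.81, -1.33, 0.18, -4.68 and -0.89, averaging -1.51 ± 1.86 (SD, n = 5). Without array 4 its mean was -0.71. Its ratio on array 4 was the lowest of all 39 and ranked at percentile 0.91 of that array. On array 3, where the first pair of Pax6 spots was lowest, it was positive. Spot 13161 was usable only on array 3, at 2.04, where 5.77% of all spots were likewise measured on 1 array. Pax6 spots below -1 numbered 0 of 3, 1 of 3, 2 of 4, 1 of 3 and 0 of 3 on arrays 1 to 5, where 20.2%, 18.0%, 20.9%, 19.9% and 12.3% of all spots lay there.

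The Pax6 gene value, averaged over the 3 spots on all arrays, was negative on every array. It was -0.65, -0.51, -0.92, -1.59 and -0.60, averaging -0.85 ± 0.44 (SD, n = 5). Without spot 14343, an alternative chosen after its values were seen, the values were -0.57, -0.099, -1.46, -0.044 and -0.46, with a mean of -0.53 ± 0.57 (SD, n = 5), a change of over 1.5 times. The array on which Pax6 is lowest then moves to array 3, where it is array 4 with the spot included. Arrays of focus position 10 gave -0.69 ± 0.21 (SD, n = 3) and those of position 0 gave -1.10 ± 0.70 (SD, n = 2). Averaged over every measured spot, with the positive spot 13161 on array 3, the Pax6 mean was -0.71 ± 0.53 (SD, n = 5).

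**Figure D2:**
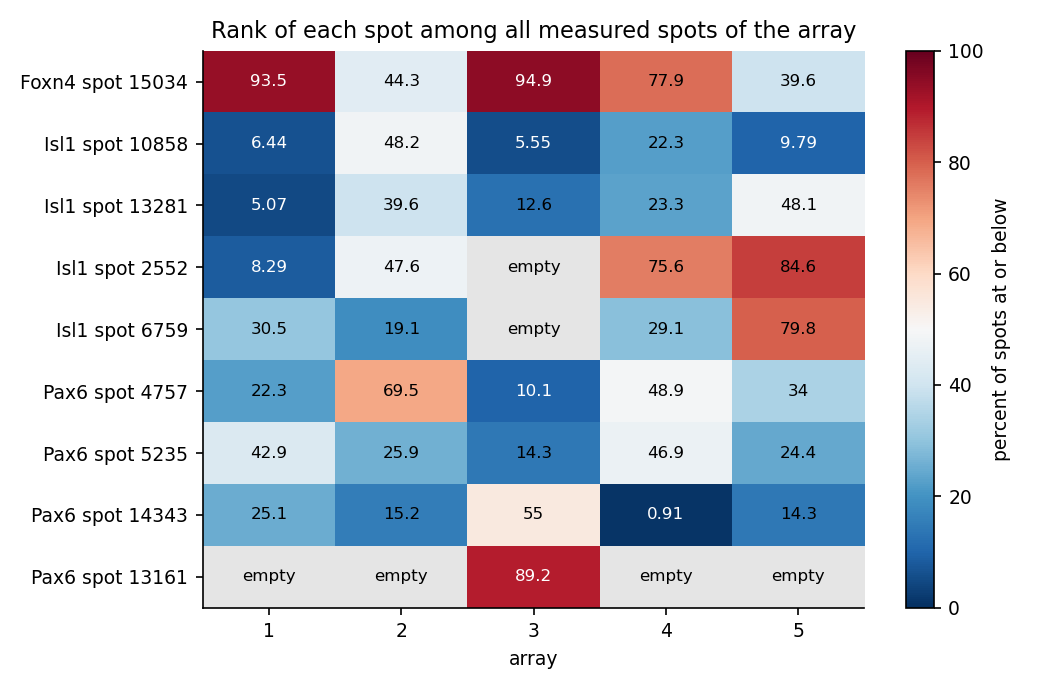
Percent of all measured spots of an array that lie at or below each spot of Foxn4, Isl1 and Pax6 (rows), on arrays 1 to 5 (columns), with blue for low and red for high ranks and grey for empty cells. Foxn4 ranks at 93.5 and 94.9 on arrays 1 and 3, Isl1 spot 10858 at 6.44 and 5.55, and Pax6 spot 14343 at 0.91 on array 4.

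How well spots of a gene matched was set against all genes with several spots measured on all 5 arrays. Over 790 pairs of spots from 591 genes the root mean square difference between the spots of a pair, taken over the 5 arrays, had a median of 0.88 log2 units. The Isl1 spots 10858 and 13281 differed by 0.63, at percentile 30.5 of these pairs. The Pax6 spots 4757 and 5235 differed by 0.54, at percentile 22.5. Both pairs were thus closer than most such pairs. Isl1 spots 2552 and 6759 and Pax6 spot 13161 were not on all arrays and were not scored. On array 5 spots 2552 and 6759 were 1.48 and 1.11, where 10858 and 13281 were -1.19 and -0.046. The closeness of the scored Isl1 pair therefore does not extend to all Isl1 spots. Spot 14343 differed from 4757 by 2.37 and from 5235 by 2.22, at percentiles 91.9 and 90.3.

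The spots numbered next to each spot were also read, as the median of the 10 on either side. Beside Pax6 spot 14343 this median was -1.53 on array 4, at percentile 0.33 of all such medians on the array. Beside Pax6 spot 4757 it was -1.30 on array 3, at percentile 0.86, and beside Isl1 spot 10858 it was -0.87 on array 5, at percentile 0.44. These 3 ratios therefore stood among neighbours that were low as well, and the part of the neighbourhood in them was not tested. Beside Foxn4 the median was -0.25 and -0.036 on arrays 1 and 3, near 0, where Foxn4 itself was above 2. Beside Isl1 spot 10858 it was 0.008 and -0.053 on arrays 1 and 3, and beside spot 13281 it was 0.15 and -0.24. The sources used here do not give the layout behind the spot numbers.

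**Figure D3:**
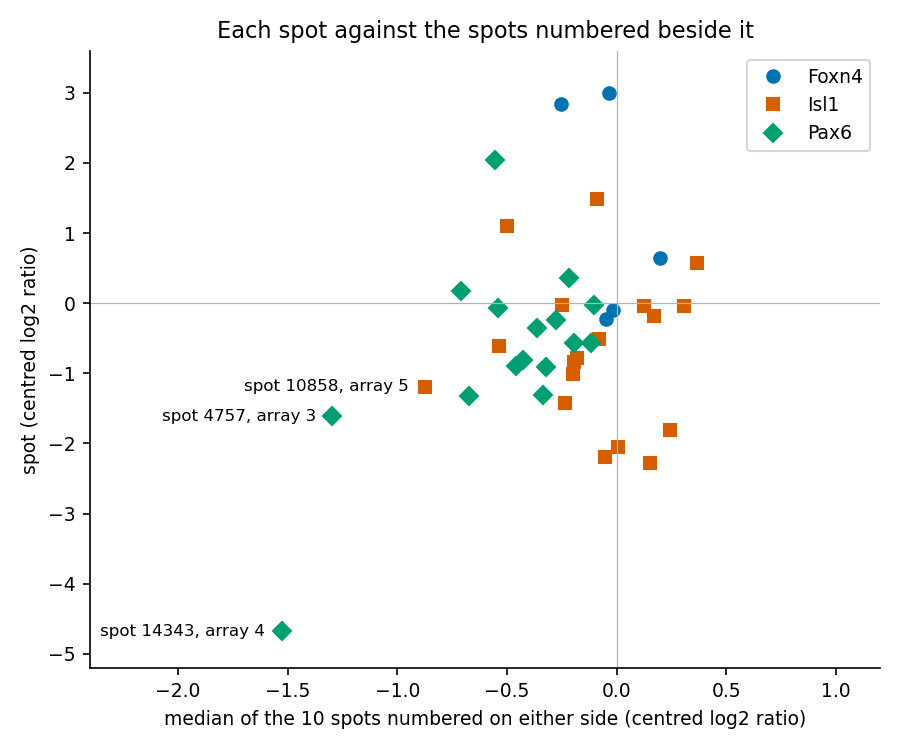
Centred log2 ratio of each spot of Foxn4, Isl1 and Pax6 on each array (y axis) against the median of the 10 spots numbered on either side of it (x axis), 39 points in all. Pax6 spot 14343 on array 4 lies at -4.68 with neighbours at -1.53, while Foxn4 at 2.84 and 2.99 has neighbours at -0.25 and -0.036.

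Rod markers lay low on the arrays where Foxn4 was high. Relative to all genes, the 12 measured rod genes had a median of -3.24, 0.13, -3.55, -0.49 and 0.11 on arrays 1 to 5, with 12, 5, 12, 10 and 5 of the 12 below the median of all genes. Rods are the photoreceptors of dim light, and 15 of their 18 listed genes had a spot. Isl1, relative to all genes, lay at -1.77, -0.11, -1.38, -0.94 and -0.35, low on the arrays on which rod genes were low, and Foxn4 was high on arrays 1 and 3. Pax6 lay at -0.26, -0.52, -0.49, -1.72 and -0.33 and was lowest on array 4. The part of the rod genes in the ratios of Isl1 and Foxn4 was not tested.

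Markers of the cells that use the 3 factors were read in the same way. On arrays 1 to 5 the relative median of 6 ganglion cell genes was -0.16, -0.074, -0.33, -0.18 and 0.28. That of 7 amacrine genes was 0.33, -0.12, -0.21, -0.10 and 0.35, and that of 5 horizontal cell genes 0.14, 0.12, -0.28, -0.55 and 0.15. The 3 measured bipolar genes gave -0.24, -0.21, -0.64, 0.13 and -0.031. These medians average genes that went both ways. Below -1 on arrays 1 to 5 lay 2, 0, 2, 0 and 1 of the 6 ganglion cell genes, 1, 1, 1, 0 and 0 of the 7 amacrine genes, 1, 0, 2, 1 and 1 of the 5 horizontal cell genes and 0, 0, 2, 0 and 1 of the 3 bipolar genes. Above 1 lay 1 ganglion cell gene on array 1 and 1 amacrine gene on each of arrays 1, 3 and 5. Of all spots, 20.2%, 18.0%, 20.9%, 19.9% and 12.3% lay below -1 on arrays 1 to 5. Above 1 lay 26.0%, 15.6%, 24.4%, 14.9% and 22.0% of all spots. These shares are of single spots, while the list counts are of gene values from spots measured on all arrays. Spots measured on all arrays spread less than all spots, so the shares are not on the scale of the counts. With so few genes in a list, these counts are not read as changes of the markers. The 7 cone genes gave -0.94, 0.29, -1.13, 0.33 and -0.16, and the 7 Muller glia genes -0.31, -0.23, -0.17, 0.063 and 0.15. Lens, pigment epithelium, vessel and microglia lists had 0, 1, 1 and 1 genes on all arrays and gave no usable median.

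**Figure D4:**
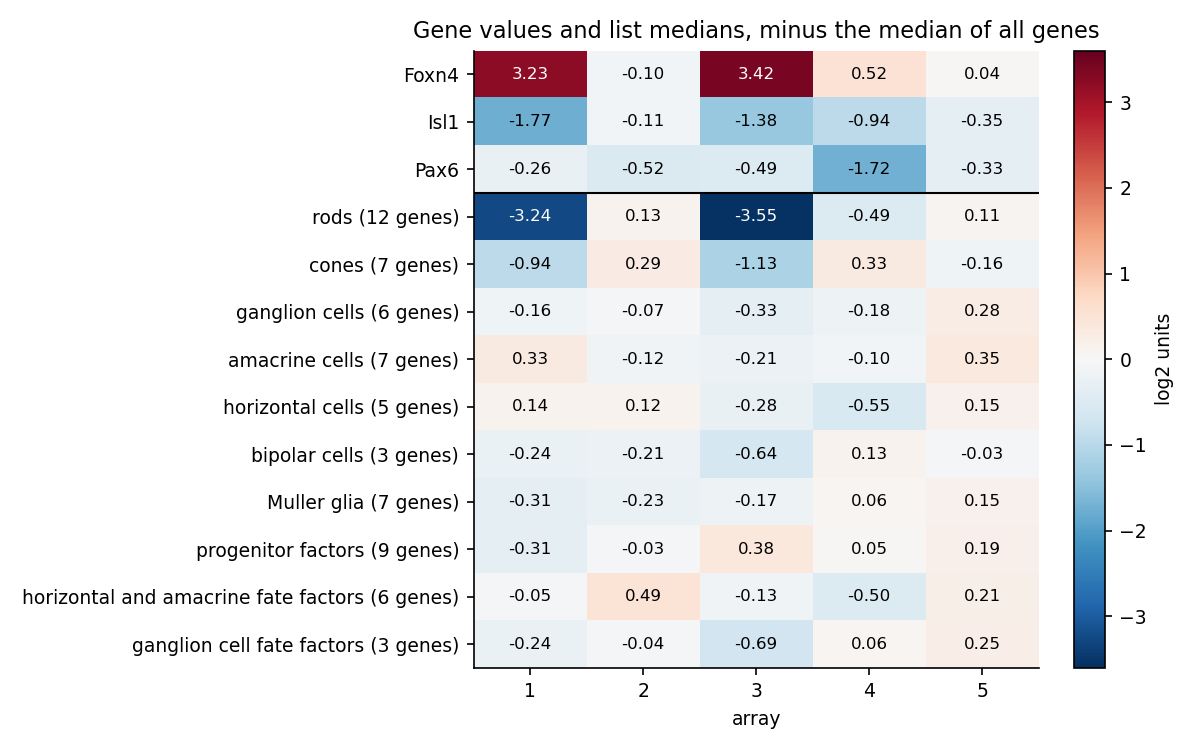
Gene values of Foxn4, Isl1 and Pax6 (top 3 rows) and medians of cell type and fate factor lists (other rows), each minus the median of all genes on arrays 1 to 5 (columns), in log2 units with red above and blue below 0. Foxn4 is at 3.23 and 3.42 and the rod list at -3.24 and -3.55 on arrays 1 and 3. The ganglion, amacrine and horizontal cell marker lists lie between -0.55 and 0.35 on all arrays. On array 3 the bipolar list is at -0.64 and the ganglion cell fate factors at -0.69. The cone list is at -0.94 and -1.13 on arrays 1 and 3.

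Other factors of the same programmes were read from lists. No probe of the 10036 fitted with limma against a ratio of 0 passed at an adjusted p under 0.05, which is 0% of the probes, so 0 passed in each direction in every list. Before adjustment 1146 probes, or 11.4%, had a p under 0.05, and 0 passed in the unmoderated test. The 6 horizontal and amacrine fate factors measured on all arrays had a median of -0.053, 0.49, -0.13, -0.50 and 0.21 relative to all genes on arrays 1 to 5. Of 12 probes for 9 such genes 0 had an unadjusted p under 0.05. The smallest were those of Lhx1, a horizontal cell factor, at 0.18, -0.79, -0.49, -1.70 and -3.15, then Barhl2, Onecut2 and Tfap2b.

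Ganglion cell fate factors, with 3 genes on all arrays, had medians of -0.24, -0.044, -0.69, 0.062 and 0.25 relative to all genes, and 0 of 8 probes had an unadjusted p under 0.05. At spot 757 Sox11, an HMG-box factor of young neurons, had 1.32, -0.65, 2.34, 0.77 and 0.82 on arrays 1 to 5. This spot has the smallest p of its spots, and 3 other tested Sox11 spots are not given. Of the 3 genes on all arrays, Sox11 among them, 0 had a gene value above 1 on any array. Klf7, Myt1 and Sox4 came next by p. Progenitor factors, with 9 genes on all arrays, had medians of -0.31, -0.034, 0.38, 0.052 and 0.19, and of 16 probes 2 positive and 1 negative had an unadjusted p under 0.05, against 11.4% of all probes. On arrays 1 to 5, 7, 5, 3, 4 and 3 of these 9 were under the all-gene median. Below -1 lay 3, 2, 2, 1 and 1 of them, where 20.2%, 18.0%, 20.9%, 19.9% and 12.3% of all spots lay. Above 1 lay 1, 0, 1, 1 and 0, where 26.0%, 15.6%, 24.4%, 14.9% and 22.0% of all spots lay. As for the marker lists, the counts are of gene values and the shares of single spots, so their scales differ. Sfrp2, a secreted Wnt modulator of progenitors, had 3.07, 1.57, 3.20 and 0.83 on arrays 1 to 4 at spot 16104, which has the smallest p of its spots. Its spot 10285 had 2.20, 0.54, 2.78, -0.38 and -1.26 on arrays 1 to 5, and its spot 11684 had -2.42, -1.68, 2.13 and -0.58 on arrays 1, 2, 3 and 5. The Notch ligand Dll1 had 1.23, 0.50, 2.08 and 1.12 on arrays 1, 2, 4 and 5, followed by Zic2 and Meis2.

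Relatives by protein family were read in the same way. Among 8 forkhead genes the median relative to all genes was 0.45, -0.40, 0.39, -0.28 and 0.18. Foxo3 had -5.78, -1.58, -1.26, -2.73 and -1.19 and Foxn3, of the same subfamily as Foxn4, had 1.04, -0.55, 0.63, 0.87 and 1.37, followed by Foxj2 and Foxm1. Among 8 LIM homeodomain genes and cofactors the median was 0.40, -0.33, 0.067, 0.022 and -0.038. Ldb1, the cofactor that joins LIM homeodomain proteins, had -0.95, -0.28, -0.87, -0.19 and -0.43, with Lhx1, Lhx8 and Lhx3 also among the smallest p. Among paired-type genes only Pitx3 and Crx were measured on at least 4 arrays, and Pitx3, a lens and midbrain factor, had -0.70, -0.47, -0.87, -1.44 and -1.35. The genes named from these lists had limma adjusted p from 0.409 to 0.899, and several have other spots, which the choice by smallest p passed over. The values given for Lhx1, Dll1, Foxo3 and Ldb1 are those of 1 spot, and each has 1 other tested spot that is not given.

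The genes nearest to each factor were found by the root mean square difference of gene values over the 5 arrays, among 3738 other genes. The search picks the closest genes, so a shared pattern and a difference under the median of all genes follow from it. Nearest to Foxn4 were Lmnb1, which encodes lamin B1 of the nuclear envelope, at 0.24 log2 units, Cdkn1a, the cyclin-dependent kinase inhibitor p21, at 0.25, and Hmgb2, a chromatin protein, at 0.36. Lmnb1 had 2.65, -0.49, 2.99, 0.79 and -0.50 on arrays 1 to 5. Cdkn1a had 3.05, -0.055, 2.99, 0.64 and -0.76, and Hmgb2 had 2.16, 0.14, 2.63, 0.73 and -0.20. All were high on arrays 1 and 3, below 1 on array 4 and near or below 0 on arrays 2 and 5, and the median difference of Foxn4 from all other genes was 2.21.

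Nearest to Isl1 were Klc3, a kinesin light chain, at 0.19, Ndrg4 at 0.20 and Syt7, a synaptotagmin of vesicle release, at 0.20, where the median over all other genes was 1.24. Syt7 had -2.11, 0.21, -2.01, -0.58 and -0.53 on arrays 1 to 5. Klc3 had -2.25, -0.33, -1.94, -0.53 and -0.46. These genes were low on arrays 1 and 3 and within 1 log2 unit of 0 on the others, as the Isl1 gene value was. That value averages spots 10858 and 13281 only. On array 5 spot 10858 alone was -1.19, and spots 2552 and 6759, outside the average, were 1.48 and 1.11.

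Nearest to Pax6 were Lrmp at 0.26, Gnpnat1, an enzyme of amino sugar synthesis, at 0.33 and Parvb, an adhesion protein, at 0.34, where the median over all other genes was 1.05. Lrmp had -0.22, -0.88, -0.99, -1.69 and -0.51 on arrays 1 to 5. The Pax6 value in this search averages spots that disagree, so its neighbours follow that average and not any one spot.

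**Figure D5:**
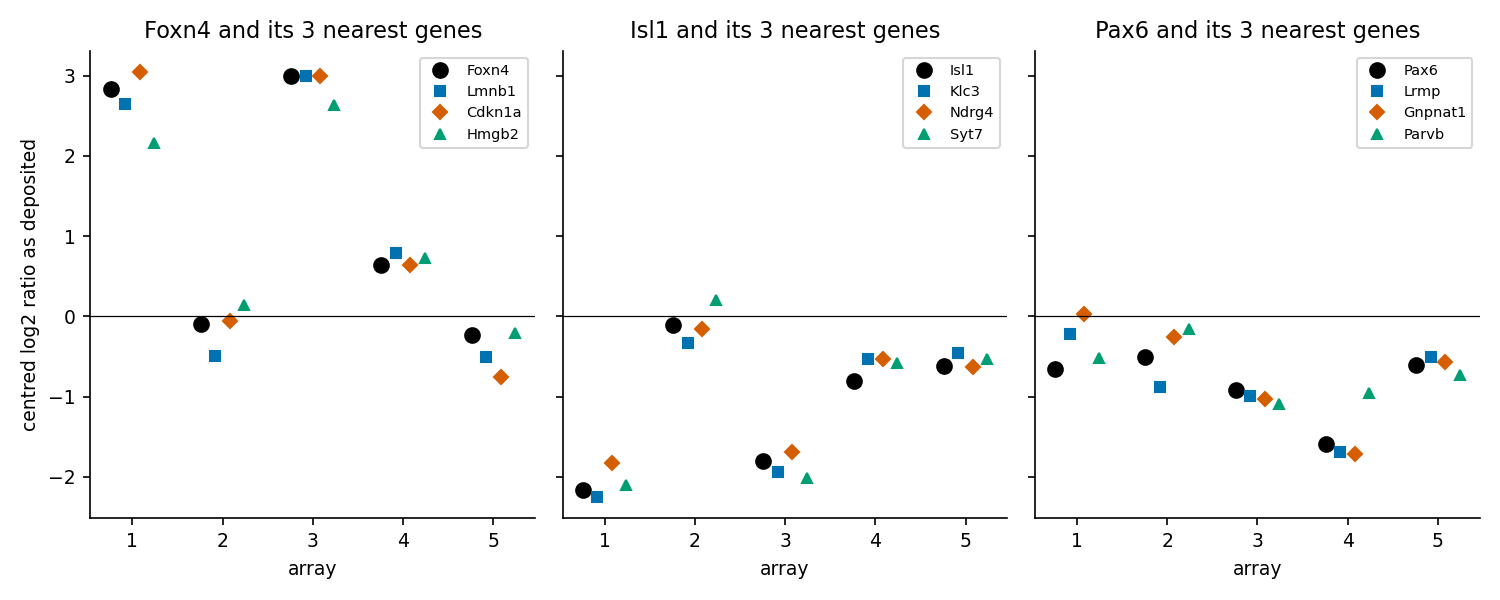
Centred log2 ratio (y axis) of Foxn4, Isl1 and Pax6 (black circles) and of the 3 genes nearest to each (coloured markers) on arrays 1 to 5 (x axis). The Foxn4 group lies between 2.16 and 3.05 on arrays 1 and 3 and the Isl1 group between -2.25 and -1.69.

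Across the series, usable ratios covered 71.8% to 75.9% of the 17328 spots of an array. The Pearson correlation between arrays over spots, which are not independent replicates, ran from 0.00202 for arrays 1 and 2 to 0.334 for arrays 1 and 3. The scaled median absolute deviation was 1.37, 0.83, 1.31, 0.90 and 0.97 on arrays 1 to 5, so a log2 ratio of a given size is less unusual on arrays 1 and 3. The ACTB control spots had medians of 1.09, -2.10, 0.72, -0.30 and 0.047.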

How the data were processed

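Per the labels, the 5 dual-colour arrays were scanned at 635 and 532 nm, GenePix Pro 4.1.1.29 read the spots, local background was subtracted, and nothing was normalized. The log2 ratios deposited by the authors were used, and their scale was inferred from the values. The sources used here do not give the filter behind empty cells or the dye of each RNA. Values of 16.61, the log2 of a filler, were set to missing, and each array was centred on its median. Symbols came from the platform annotation and were updated through gene identifiers with the RefSeq table of GRCm38.p6, in which 7663 of 7722 single-symbol spots had an entry. A gene value is the mean of the spots of a gene measured on all 5 arrays, which covered 3739 genes.

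The 3 genes, the lists and the naming rule were chosen with earlier results of these data known. The naming rule took every spot of the 3 genes, the 3 genes nearest to each, and up to 4 genes of each list by smallest limma p. The 192 ACTB control spots were left out, and probes measured on at least 4 arrays were fitted against 0 by lmFit and eBayes of limma 3.58.1 in R 4.3.3, and a Benjamini-Hochberg adjusted p under 0.05 counted as passing. The fit was also run on simulated data. Its outcome is not given here, so it does not tell how large a change these arrays could detect. Foxn4, Isl1 and Pax6 were described without a test of their own. Their spots measured on at least 4 arrays stood among the fitted probes, and no p of these spots is given. The comparison with spots of neighbouring number was added after the values were seen. Only the number of arrays and their spread, not a depth, give the precision. Alternatives covered filler, centring, scaling, filters, tests, single arrays left out and scan group.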

Additional observations from a re-analysis of the deposited data

How the results depend on the processing

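No result for Foxn4, Isl1 or Pax6 was called. The alternatives moved the sizes of the gene values and the sign of 2 Isl1 spots. Under the 16 alternatives for Foxn4 the mean ran from 0.21 to 1.91, for Isl1 under 16 from -1.56 to -0.71, and for Pax6 under 17 from -1.31 to -0.53, each with the sign it had before. Some alternatives could not differ. With 1 Foxn4 spot, the median over spots and the mean over all measured spots equal the main value, as does the median over the 2 averaged Isl1 spots. Leaving out 1 array at a time gave 0.79 to 1.60 for Foxn4, -1.35 to -0.83 for Isl1 and -0.94 to -0.67 for Pax6. Without centring the Pax6 mean was -1.31 and moved by more than the spread between arrays, since the deposited array medians of -0.76, -0.025, -0.72, -0.058 and -0.74 then stay in the values. Of the single spots, Isl1 2552 kept its sign under 9 of 14 alternatives (range -0.93 to 1.03) and Isl1 6759 under 13 of 14 (range -0.81 to 0.30), and the other 6 spots kept it under all 14. Leaving out array 3 could not change Isl1 2552 and 6759, which were empty there. The number of probes past the threshold was 0 under all 19 alternatives of limma or the unmoderated test, with 712 to 2107 at an unadjusted p under 0.05. The mean share of spots beyond 1 log2 unit ran from 34.6% to 46.2%. The ratio already pairs mutant and wild-type RNA within each array, and with 1 group of arrays no further replicate block could be fitted. With ratios alone, the brightness of a spot is unknown, and with it the precision of its ratio.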
